A study of Mus musculus with 8 samples.

Results

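The unfolded protein response and the integrated stress response of the mouse kidney were read here from 41 genes, chosen by name as endoplasmic reticulum (ER) chaperones, targets of XBP1 and ATF6, and targets of ATF4 and CHOP. Of these, 40 were measured among 15948 listed genes. Fgf21 is not analysed here. The genes were taken as 2 arms, an ER arm of 24 genes (chaperones, disulfide isomerases, sensors and degradation factors), and an ATF4 arm of 17 genes of which 16 were measured. Messenger RNA was sequenced from 8 kidney samples of a study on Arhgef11, hypertension and kidney injury. A control group of 5 libraries was labelled Sglt2Cre DOCA, and 3 libraries were labelled Arhgef11Sglt2 DOCA. Sglt2Cre is read here as a Cre recombinase driven by the promoter of Sglt2, a glucose transporter of the early proximal tubule, so that in such a model other kidney cells keep Arhgef11, which encodes a guanine nucleotide exchange factor. DOCA is the mineralocorticoid deoxycorticosterone acetate, used to raise blood pressure, and both groups carried it in their labels. No untreated kidney was analysed here. The labels gave neither strain, sex, age nor duration of treatment, and the genotype field held no entry. Whether each sample was a different animal is not in the labels, and the p-values then cover only sample-to-sample spread, which may in part be technical.

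Values are normalized counts, back-transformed from the deposited log2 values, and summed to between 43040000 and 46680000 per library. By the spacing of low values, about 33100000 to 59500000 reads stood behind the control libraries and 51400000 to 58000000 behind the others. The targeted transcript did not check the labels. Arhgef11 was present at 3679.5 ± 161.6 normalized counts in the controls (SD, n = 5) and at 2935, 3919 and 3905 in Arhgef11Sglt2 replicates 1, 2 and 3 (limma adjusted p = 0.834), and a whole-gene value in kidney tissue cannot show a partial deletion or a loss limited to the proximal tubule. Every direction below therefore refers to the libraries as labelled. In whole tissue, fewer cells of a type and less RNA per cell cannot be told apart.

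When unfolded proteins accumulate in the ER, the sensors IRE1 (gene Ern1), ATF6 and PERK (gene Eif2ak3) are released from the chaperone BiP (gene Hspa5). IRE1 splices the Xbp1 transcript, and ATF6 is cut to a transcription factor; together they raise chaperones, disulfide isomerases and the machinery of ER-associated degradation (ERAD), which returns misfolded proteins to the cytosol. PERK phosphorylates the translation factor eIF2 alpha, as do other kinases that sense amino acid shortage, heme shortage or double-stranded RNA. That shared step is the integrated stress response: translation slows, ATF4 is made, and genes for amino acid supply, feedback and cell fate follow. Proximal tubule cells, which take up and handle large amounts of filtered protein, are a known site of both responses in kidney injury.

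The arms are known to be read through different promoter elements, and the stretches below show those elements in genes of each arm. The ER stress response element is CCAAT, any 9 bases and CCACG. It was present, on either strand, in 8 of the 21 ER arm promoters found in RefSeq (GRCm38.p6; 250 bases before to 50 after the start), 38.1%, in none of the 15 ATF4 arm promoters, and in 0.1369% of all 27025 promoters. Capitals mark the element in the gene's own 5′ to 3′ direction.
Hspa5, chr2:34772005-34772063, plus strand: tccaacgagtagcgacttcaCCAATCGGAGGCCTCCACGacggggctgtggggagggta
Hsp90b1, chr10:86705618-86705676, minus strand: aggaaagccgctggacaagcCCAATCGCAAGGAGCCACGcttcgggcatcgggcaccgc
Canx, chr11:50325780-50325838, minus strand: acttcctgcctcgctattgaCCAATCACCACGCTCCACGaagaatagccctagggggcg
Pdia6, chr12:17266471-17266529, plus strand: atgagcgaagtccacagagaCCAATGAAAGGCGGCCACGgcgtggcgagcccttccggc
Dnajc3, chr14:118937807-118937865, plus strand: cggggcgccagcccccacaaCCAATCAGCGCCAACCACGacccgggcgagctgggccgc
The element began 65 bases before the start in Hspa5, 212 in Hsp90b1, 145 in Canx, 98 in Pdia6 and 105 in Dnajc3, and Hsp90b1 held another copy on the opposite strand 107 bases before it. Its shorter form, ATTGG, any base and CCACG, was found in 2 ER arm promoters (9.524%; 0.0444% of all promoters). The element TGACGTGG was found in neither arm and in 0.7142% of all promoters.

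The core at which ATF4 pairs with C/EBP proteins, TGATGNAA, was found in 8 of the 15 ATF4 arm promoters (53.33%), in 1 ER arm promoter, Herpud1 (4.762%), and in 4.511% of all promoters. The ATF4 arm carriers were Atf3, Trib3, Chac1, Asns, Vldlr, Nupr1, Aars1 and Fgf21. Atf3 and Nupr1 are shown because their groups did not overlap, and Asns and Chac1 as further carriers, whose groups overlapped. In Atf3, Nupr1 and Chac1 it lay on the opposite strand, so the capitals below show its complement.
Atf3, chr1:191183416-191183463, minus strand: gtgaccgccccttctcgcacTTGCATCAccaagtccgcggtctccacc
Nupr1, chr7:126625553-126625600, minus strand: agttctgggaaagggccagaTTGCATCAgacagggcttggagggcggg
Chac1, chr2:119351029-119351076, plus strand: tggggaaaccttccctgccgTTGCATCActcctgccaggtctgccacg
Asns, chr6:7693210-7693252, minus strand: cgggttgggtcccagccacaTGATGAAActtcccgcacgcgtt
It began 110 bases before the start in both Atf3 and Nupr1, 193 in Chac1 and 23 in Asns. Atf6, Manf, Hyou1, Eif4ebp1 and Wars1 were not matched to a promoter. A match describes the letters in this window and does not show that a factor binds there.

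The first question was whether the stress response genes differed between the groups. In limma, none of the 40 measured genes reached a p under 0.05 after Benjamini-Hochberg adjustment, where 354 of all 15948 genes did (2.22%; 100 higher and 254 lower, or 164 higher and 215 lower with libraries scaled to equal totals). The lowest adjusted p values in limma were 0.0861 for Nupr1, 0.0951 for Ppp1r15a, 0.109 for Edem1 and 0.110 for Atf3. At an unadjusted limma p under 0.05 the arms went opposite ways. In the ER arm 11 of 24 genes (45.8%) were lower in the Arhgef11Sglt2 libraries and 0 higher, beside 12.1% of all genes lower. In the ATF4 arm 5 of 16 (31.25%) were higher and 0 lower, beside 9.04% of all genes higher. The median log2 difference was -0.29 over the ER arm, with 19 of 24 genes negative, and 0.15 over the ATF4 arm, with 12 of 16 positive, where the median over all genes was -0.01. Genes of an arm were measured in the same libraries, so these counts do not come from independent observations. In the ER arm the 11 lower and 0 higher became 4 and 1 without control 2, 6 and 0 without control 3, and 4 and 0 without control 4. They became 1 and 0 without Arhgef11Sglt2 replicate 3, and 6 and 2 with equal totals. Without Arhgef11Sglt2 replicate 2 they became 1 lower and 2 higher. The balance of these few counts thus turned, while the ER arm median log2 difference in that fit was still negative, at -0.22. In the ATF4 arm the 5 higher and 0 lower became 9 and 0 without Arhgef11Sglt2 replicate 2 and 3 higher and 2 lower without replicate 3.

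**Figure D1:**
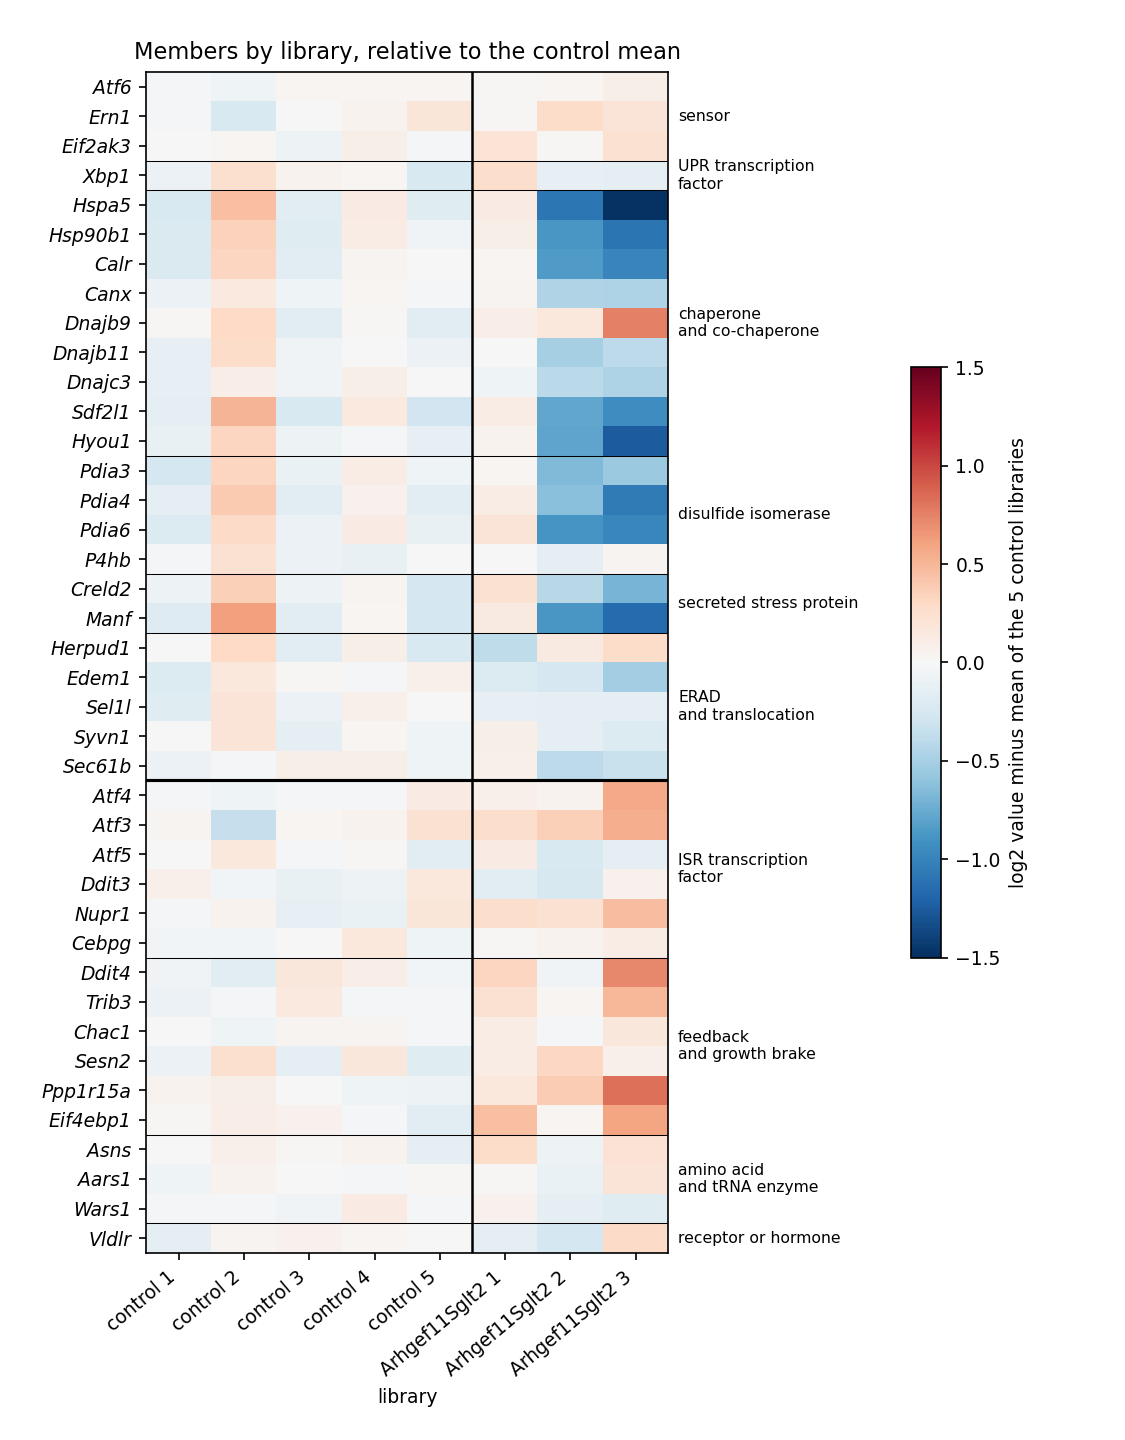
Each row is 1 of the 40 measured genes and each column 1 library; colour gives the deposited log2 value minus the mean of the 5 control libraries, with the ER arm above the thick line, the ATF4 arm below it, and roles at the right. In the chaperone rows except Dnajb9, Arhgef11Sglt2 replicates 2 and 3 are blue, palest in Canx, Dnajc3 and Dnajb11, while replicate 1 is near the controls. Control 2 is the reddest control column there, and Ppp1r15a, Ddit4, Atf4 and Dnajb9 are red in replicate 3.

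None of the 3 sensors at the head of the pathway passed the test, and their ratios ran from 1.04 to 1.15. Atf6 stood at 3578 ± 118 in the controls (SD, n = 5) and 3713 ± 122 in the Arhgef11Sglt2 group (n = 3, also SD), a ratio of 1.04 (limma adjusted p = 0.694; 95% interval of the log2 difference -0.09 to 0.18). For Eif2ak3, the PERK kinase, control replicates 1 to 5 held 2501, 2585, 2362, 2717 and 2471, and Arhgef11Sglt2 replicates 1 to 3 held 2989.8, 2570.0 and 3038. Replicates 1 and 3 were above all controls and replicate 2 was inside their range (log2 difference 0.15, SE 0.07, limma adjusted p = 0.263). Ern1 had 1614 ± 215 and 1853 ± 213 normalized counts, and only replicates 2 and 3 exceeded the highest control, 1892 (log2 difference 0.16, SE 0.10, limma adjusted p = 0.391). All 3 sensors had positive differences, with a median of 0.15. Xbp1, whose splicing these gene-level values do not show, had 6505 ± 850.0 and 6516 ± 1185 normalized counts, a ratio of 1.002 (limma adjusted p = 0.994; 95% interval of the log2 difference -0.28 to 0.28). Its groups overlapped throughout, with replicate 1 highest of all libraries at 7882.

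Transcripts of 8 of the 9 ER chaperones and co-chaperones had lower means in the Arhgef11Sglt2 group, from 2 of its 3 libraries. The log2 difference of Hspa5 was the largest of the 40 genes. Hspa5 (ENSMUSG00000026864) encodes BiP, the chaperone that binds unfolded chains and holds the sensors inactive. Control replicates 1 to 5 held 26135, 42039, 27439, 33460.2 and 26869.5 normalized counts of it, and Arhgef11Sglt2 replicates 1, 2 and 3 held 33586, 14158 and 10585. Replicates 2 and 3 lay far below every control, and replicate 1 lay above all of the controls but control 2. The mean was 1.60-fold lower (31189 ± 6729.6 against 19443 ± 12378; log2 difference -0.81, SE 0.31, limma adjusted p = 0.178).

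Hyou1, a nucleotide exchange factor for BiP, had 5776, 7982, 5909.8, 6217 and 5726 normalized counts in the 5 controls and 6548, 3415 and 2350.4 in the Arhgef11Sglt2 libraries. The pattern was that of Hspa5, with replicate 1 inside the control range and replicates 2 and 3 below it (1.54-fold lower; log2 difference -0.66, SE 0.24, limma adjusted p = 0.162). Hsp90b1, the ER member of the HSP90 family, had 24046, 35866, 24725, 30396 and 27143 in the controls and 30034, 15045 and 12878 in the Arhgef11Sglt2 libraries (1.47-fold lower; log2 difference -0.63, SE 0.24, limma adjusted p = 0.181). Its replicate 3 held the lowest value and control 2 the highest.

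Calreticulin (Calr) and calnexin (Canx) fold glycoproteins by holding their sugar chains. Calr had 26866, 39496, 28194, 32252 and 31592 normalized counts in the controls and 32141, 17134 and 15558 in the Arhgef11Sglt2 libraries (1.47-fold lower; log2 difference -0.60, SE 0.22, limma adjusted p = 0.160). For Canx the controls ranged from 21629 to 25569 and the Arhgef11Sglt2 libraries held 23712, 16609.9 and 16488 (1.22-fold lower; log2 difference -0.29, SE 0.12, limma adjusted p = 0.214). Both genes again had replicate 1 among the controls and the other replicates below all of them.

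Of the BiP co-chaperones, Dnajc3 and Dnajb11 were low in the same libraries and Dnajb9 was not. Dnajc3 had 8928 ± 641 normalized counts in the controls and 8495, 6625 and 6322 in the Arhgef11Sglt2 libraries (1.25-fold lower; log2 difference -0.31, SE 0.10, limma adjusted p = 0.132). Dnajb11 had 4288 ± 568 in the controls and 4277, 2861 and 3133 in the Arhgef11Sglt2 libraries (1.25-fold lower; log2 difference -0.29, SE 0.13, limma adjusted p = 0.220). Sdf2l1, a BiP partner, had the largest ratio among the chaperones. Its controls held 584, 1159, 519, 804 and 484, and the Arhgef11Sglt2 libraries held 768, 242 and 183 (1.79-fold lower; log2 difference -0.53, SE 0.25, limma adjusted p = 0.249). Dnajb9, a co-chaperone that hands misfolded proteins to degradation and is a known XBP1 target, was the exception among the 9 chaperones. Its controls held 2647, 3338, 2286, 2650.1 and 2262.7 and its Arhgef11Sglt2 libraries 2839.6, 2987 and 4782, so the groups overlapped and only replicate 3, the library lowest in Hspa5, stood above every control (1.34-fold higher; log2 difference 0.34, SE 0.16, limma adjusted p = 0.254). Over the 9 chaperones the median log2 difference was -0.53, with 8 negative and 7 of them at an unadjusted limma p under 0.05. In 8 of the 9, replicates 2 and 3 were both below every control, and in all 9 replicate 1 was within the control range. For Hspa5, Hyou1, Canx, Dnajb9 and Dnajb11, control 2 was the only control above replicate 1.

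The disulfide isomerases, which form and reshuffle disulfide bonds, split 3 to 1. Pdia6 had 6992, 9993, 7616, 8885 and 7457 normalized counts in the controls and 9379.8, 4159 and 3857 in the Arhgef11Sglt2 libraries (1.41-fold lower; log2 difference -0.56, SE 0.24, limma adjusted p = 0.222). Pdia4 had 6444 ± 1248 in the controls and 6926, 3926 and 2765 in the Arhgef11Sglt2 libraries (1.42-fold lower; log2 difference -0.53, SE 0.23, limma adjusted p = 0.229). Pdia3, which works with calreticulin and calnexin, had 22349 ± 3693 and 22540.1, 13794 and 14811 in the same order (1.31-fold lower; log2 difference -0.40, SE 0.17, limma adjusted p = 0.226). In these 3 genes replicates 2 and 3 were below every control. P4hb, the founding member of the family and also a subunit of the collagen prolyl hydroxylase, had 27394 ± 2815 and 27078, 24907 and 28019, with overlapping groups (ratio 0.97; limma adjusted p = 0.879; 95% interval of the log2 difference -0.25 to 0.19).

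Manf and Creld2 encode ER proteins that are secreted under stress. Manf had 2372, 4561, 2417, 2858 and 2235 normalized counts in the controls and 3122, 1309 and 988 in the Arhgef11Sglt2 libraries (1.60-fold lower; log2 difference -0.63, SE 0.28, limma adjusted p = 0.240). Creld2 had 1314, 1944, 1322, 1473 and 1111 and 1739, 940.1 and 699 in the same order (1.27-fold lower; log2 difference -0.29, SE 0.20, limma adjusted p = 0.419). Control 2 was the highest library and replicate 3 the lowest for both.

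The degradation and translocation genes differed less and less uniformly. Edem1, a lectin that sends misfolded glycoproteins to ERAD, was the only ER arm gene whose groups did not overlap, 1 of 24 where 8.14% of all genes were without overlap in that direction. Its controls held 3515, 4675, 4191, 4039 and 4398 and its Arhgef11Sglt2 libraries 3513, 3386 and 2742, the highest of which lay just under the lowest control (1.30-fold lower; log2 difference -0.33, SE 0.10, limma adjusted p = 0.109). Sec61b, a subunit of the translocation channel, had 1125 ± 93.3 and 1206, 753 and 798 (log2 difference -0.22, SE 0.11, limma adjusted p = 0.277). The retrotranslocation complex of Sel1l and Syvn1 had ratios of 0.90 and 0.93 (limma adjusted p = 0.405 and 0.621). Herpud1, which recruits that complex, ran against most chaperones across the Arhgef11Sglt2 libraries. Replicate 1 was the lowest of all libraries at 7546, and replicates 2 and 3 held 11029 and 12225. The controls ranged from 8463 to 12448 (ratio 1.02; limma adjusted p = 0.979; 95% interval of the log2 difference -0.35 to 0.37). Control 2 was the highest library, as for 8 of the 9 chaperones.

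Within the ER arm, the 10 genes that carried either form of the ER stress response element had a median log2 difference of -0.30, and 7 of them had an unadjusted limma p under 0.05. The 11 genes without it in the window had a median of -0.14, and 3 had such a p. Hyou1 (-0.66), Manf (-0.63) and Atf6 (0.05) were not matched to a promoter and are in neither set. Hspa5 and Dnajc3, printed above, and Herpud1, which holds the shorter form, show the range within the carriers, from -0.81 to 0.01.

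The transcription factors of the ATF4 arm did not move as a block. Atf4 itself, which is mainly controlled through translation, had 3153, 3030.0, 3117, 3161 and 3530.5 normalized counts in the controls and 3381, 3347 and 4998 in the Arhgef11Sglt2 libraries. Replicate 3 stood above every other library and replicates 1 and 2 lay within the control range (1.22-fold higher; log2 difference 0.23, SE 0.12, limma adjusted p = 0.279). Atf3, an early stress-induced factor, had 261, 130, 257, 265 and 348 in the controls and 365, 415 and 531 in the Arhgef11Sglt2 libraries. All 3 were above the highest control, and control 2 was the lowest library (1.73-fold higher; log2 difference 0.39, SE 0.12, limma adjusted p = 0.110). Nupr1, a stress-induced chromatin protein, had 582, 637, 516, 529.6 and 729 in the controls and 804, 774 and 984 in the Arhgef11Sglt2 libraries, again without overlap (1.43-fold higher; log2 difference 0.32, SE 0.09, limma adjusted p = 0.0861).

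Ddit3, which encodes the pro-apoptotic factor CHOP, had a negative difference. Its controls held 599, 522, 478, 502 and 657 and its Arhgef11Sglt2 libraries 442, 402 and 595, so that replicates 1 and 2 were below every control (1.15-fold lower; log2 difference -0.12, SE 0.09, limma adjusted p = 0.495). Atf5 had 672 ± 86.0 and 616 ± 132 normalized counts (ratio 0.92; limma adjusted p = 0.670; 95% interval of the log2 difference -0.29 to 0.13), and Cebpg, a dimer partner of ATF4, had 2271 ± 180.0 and 2388 ± 86.1 (ratio 1.05; limma adjusted p = 0.654; 95% interval -0.09 to 0.22). Of the 6 factors, 4 had positive and 2 had negative differences.

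The 6 genes grouped here as feedback or growth brakes, with the glutathione-degrading Chac1 placed among them, all had positive differences (median 0.29). Ppp1r15a (ENSMUSG00000040435) encodes GADD34, the phosphatase subunit that removes the phosphate from eIF2 alpha and so ends the response. Control replicates 1 to 5 held 802, 825, 749.8, 702 and 697 normalized counts, and Arhgef11Sglt2 replicates 1, 2 and 3 held 888, 1115 and 1701. The groups did not overlap and the controls were tight (1.63-fold higher, 755 ± 57.4 against 1235 ± 419; log2 difference 0.45, SE 0.13, limma adjusted p = 0.0951). Ppp1r15a, Nupr1 and Atf3 were the 3 of 16 ATF4 arm genes that were higher without overlap, beside 6.2% of all genes in that direction.

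Eif4ebp1, a repressor of cap-dependent translation, had 501, 549.7, 532, 475 and 397 in the controls and 818, 506 and 955 in the Arhgef11Sglt2 libraries (1.55-fold higher; log2 difference 0.36, SE 0.12, limma adjusted p = 0.136). Replicates 1 and 3 were above all controls and replicate 2 was among them. Trib3, a pseudokinase induced by ATF4 and CHOP, was a low-count gene with 34.4, 44.5, 73.9, 45.7 and 43.7 normalized counts in the controls and 91.5, 51.8 and 165 in the Arhgef11Sglt2 libraries (2.12-fold higher; log2 difference 0.25, SE 0.10, limma adjusted p = 0.184). Its log2 difference is small beside its ratio because the deposited scale compresses low values. The mTORC1 inhibitors Ddit4 and Sesn2 differed in which library was high. Ddit4 had 1139 ± 146 in the controls and 1541, 1078 and 2185 in the Arhgef11Sglt2 libraries (1.41-fold higher; log2 difference 0.33, SE 0.15, limma adjusted p = 0.243), and Sesn2 had 2553 ± 409 and 2778, 3264 and 2707 (1.14-fold higher; log2 difference 0.17, SE 0.11, limma adjusted p = 0.416). Chac1, which degrades glutathione, had 32.5 ± 5.88 and 49.9, 30.2 and 58.3 (1.42-fold higher; limma adjusted p = 0.394). Replicate 2 was inside the control range for Ddit4, Trib3, Chac1 and Eif4ebp1, while replicates 1 and 3 were above it.

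The enzymes of amino acid supply and tRNA charging had a median log2 difference of 0.04. Asns, asparagine synthetase, had 286, 322, 299, 313 and 232 in the controls and 426, 259 and 394 in the Arhgef11Sglt2 libraries (1.24-fold higher; log2 difference 0.14, SE 0.09, limma adjusted p = 0.394), with replicate 2 again inside the control range. The tRNA synthetases Aars1 and Wars1 had ratios of 1.03 (95% interval of the log2 difference -0.13 to 0.21) and 0.93 (-0.26 to 0.08), with limma adjusted p values of 0.823 and 0.540. Vldlr, a lipoprotein receptor induced through ATF4, had 5387 ± 315 and 4835, 4389 and 6690.3 (ratio 0.98; limma adjusted p = 0.883; 95% interval -0.30 to 0.22), its replicate 3 the highest and replicate 2 the lowest of the 8 libraries. Among the ATF4 arm genes with the TGATGNAA core the median log2 difference was 0.14 over 7 genes, and among the 7 without it 0.17. Of the carriers printed above, Chac1 lay below the median of 0.14 and Atf3 and Nupr1 above it.

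**Figure D2:**
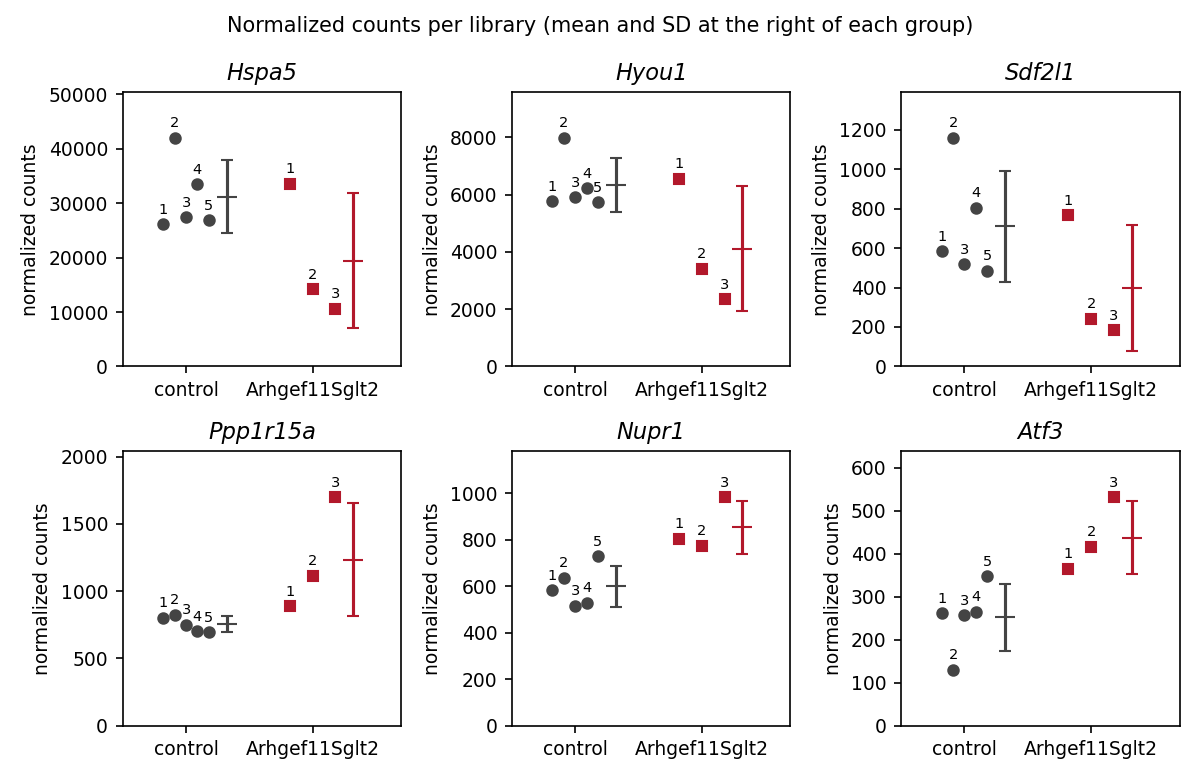
Normalized counts per library (linear axis from 0) for 3 ER arm genes (top) and 3 ATF4 arm genes (bottom); numbers are replicates, and the bar beside each group is its mean and SD (controls n = 5, Arhgef11Sglt2 n = 3). For Hspa5, Hyou1 and Sdf2l1 replicate 1 stands with the controls above replicates 2 and 3, while for Ppp1r15a, Nupr1 and Atf3 all 3 Arhgef11Sglt2 libraries stand above the 5 controls.

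The group result rested on which Arhgef11Sglt2 library was in the fit. Without replicate 1, 14 of the 40 genes passed the adjusted threshold in limma: 13 ER arm genes were lower, beside 4.74% of all genes lower, and 1 ATF4 arm gene, Ppp1r15a, was higher, beside 3.62% of all genes higher. The 13 were Hspa5, Hsp90b1, Calr, Canx, Pdia3, Pdia4, Pdia6, Dnajb11, Dnajc3, Sdf2l1, Manf, Hyou1 and Sec61b. In that fit Hspa5 fell 2.52-fold (limma adjusted p = 0.0122), Sdf2l1 3.34-fold (0.0369), Manf 2.51-fold (0.031) and Hyou1 2.19-fold (0.0117). Pdia6 and Hsp90b1 fell 2.04-fold each (0.0107 and 0.0134), and Ppp1r15a rose 1.86-fold (0.0208). Without replicate 2, Eif4ebp1 alone passed, at 1.81-fold higher (limma adjusted p = 0.0242), 1 of the 40 beside 444 of all 15948 genes (144 higher). Without replicate 3, or without any 1 control, none of the 40 passed. At an unadjusted limma p under 0.05, 4 to 10 ER arm genes were lower in the fits without 1 control, and 1 in the fit without replicate 3. A group with 2 libraries borrows its spread from the controls in these fits, and leaving out replicate 1 was 1 of 8 such fits.

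**Figure D3:**
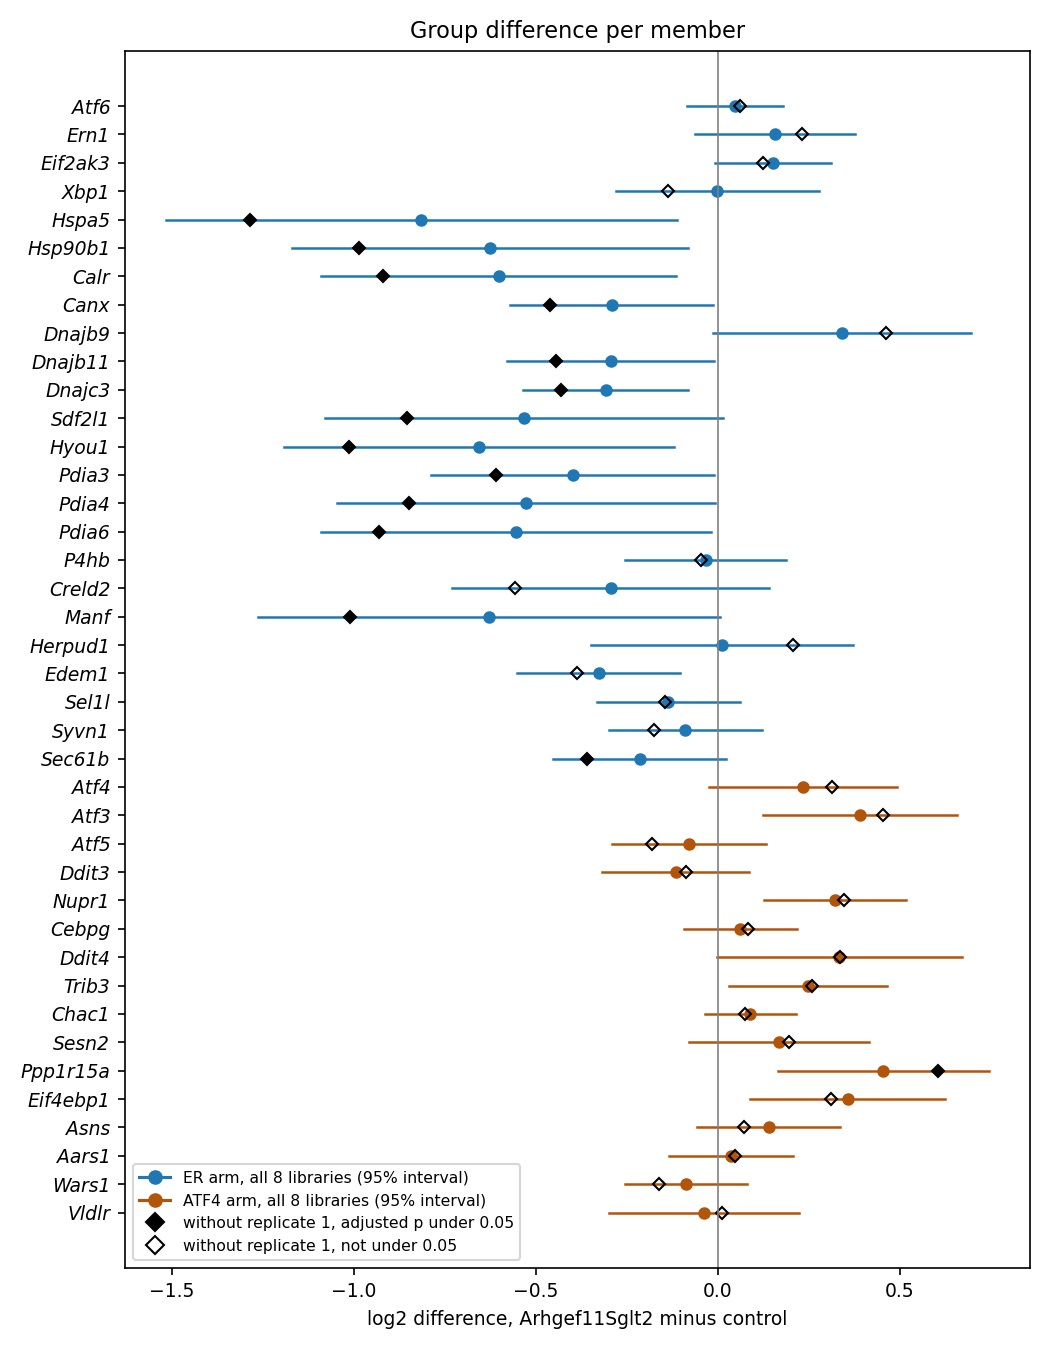
Log2 difference (Arhgef11Sglt2 minus control) of each measured gene; circles with lines are the fit of all 8 libraries with its 95% interval, blue for the ER arm and orange for the ATF4 arm, and diamonds are the fit without Arhgef11Sglt2 replicate 1, filled where the limma adjusted p was under 0.05. The diamonds of 13 ER arm genes lie to the left of their circles and are filled, and that of Ppp1r15a is filled at the right.

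The second question was how the arms stood to each other within a library. The mean log2 value of the ER arm relative to the control mean was 0.05 in Arhgef11Sglt2 replicate 1, -0.41 in replicate 2 and -0.47 in replicate 3, against -0.12, 0.24, -0.09, 0.05 and -0.09 in the controls. The ATF4 arm mean was 0.13 in replicate 1, 0.02 in replicate 2 and 0.31 in replicate 3, against -0.02 to 0.03 in the controls. Each Arhgef11Sglt2 library thus held its own combination. Replicate 3 was low in the ER arm and high in the ATF4 arm, replicate 2 was low in the ER arm with the ATF4 arm inside the control range, and replicate 1 was at control level in the ER arm with the ATF4 arm above the controls. Across the controls the ER arm varied more than the ATF4 arm on the deposited scale, with an SD of 0.15 against 0.0181 for the arm means. That scale compresses low values, and some ATF4 arm genes were low, such as Chac1 (32.5 normalized counts in the controls) and Atf3 (252). Sizes and spreads of the arms are therefore not strictly comparable. With log2 of the normalized count plus 1, the median differences were -0.33 (ER arm) and 0.28 (ATF4 arm), where the deposited scale gave -0.29 and 0.15.

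The same split showed gene by gene. In the ER arm, 16 of 24 genes (66.7%) had both replicates 2 and 3 below all controls, beside 18.3% of all genes, and 20 (83.3%) had replicate 1 within the control range, beside 55.1%. Control 2 was the highest library for 18 of the 24 (75%), beside 18.2% of all genes. The place of replicate 1 within the control range often rested on it. For Hspa5, Hyou1, Canx, Dnajb9, Dnajb11, Pdia4, Pdia6, Manf, Creld2 and Syvn1, control 2 was the only control above replicate 1. In the ATF4 arm, replicate 3 was the highest library for 10 of 16 genes (62.5%), beside 22.4% of all genes, and replicates 2 and 3 were both below all controls for 1. The numbers in the library names formed a lower range (control replicates 1 to 3, Arhgef11Sglt2 replicates 1 and 2) and a higher range (control replicates 4 and 5, Arhgef11Sglt2 replicate 3), and whether these are cohorts is not stated. Within the lower range the median log2 difference was -0.20 in the ER arm and 0.09 in the ATF4 arm, and within the higher range it was -0.48 and 0.27.

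**Figure D4:**
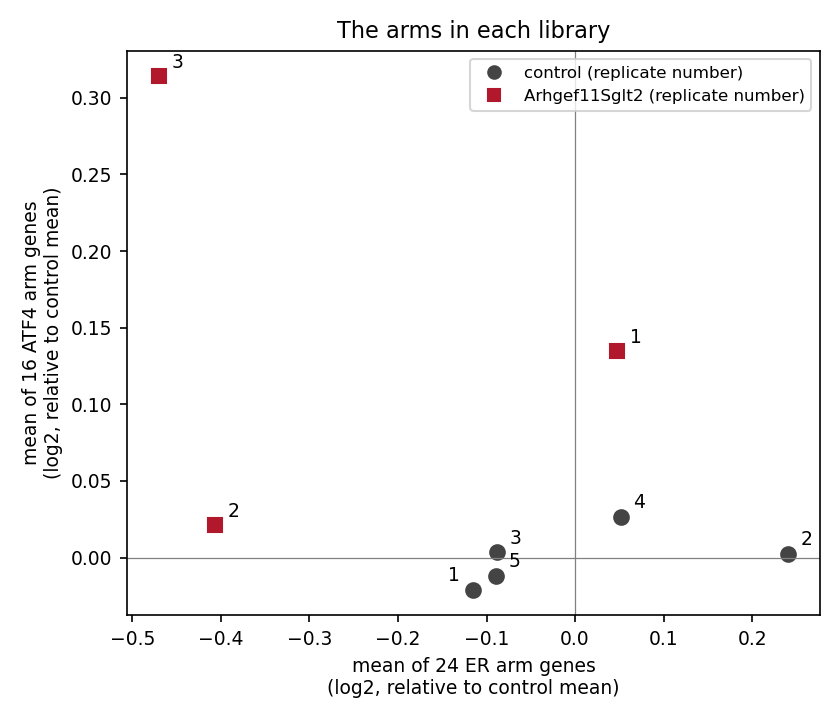
Each point is 1 library: the mean of the 24 ER arm genes (horizontal) and of the 16 measured ATF4 arm genes (vertical), both in log2 relative to the mean of the 5 controls; numbers are replicates. The 5 controls lie in a flat band in which the ATF4 arm mean stays between -0.02 and 0.03, and the 3 Arhgef11Sglt2 libraries lie apart from one another, with replicate 3 at the upper left.

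Other genes of both pathways, from lists that hold none of the 40, were read the same way. These lists too were chosen with earlier results of these data known, so their counts are no independent check. Of 65 other ER folding, translocation and degradation genes, 0 passed the adjusted threshold in limma, with 12 lower (18.5%) and 2 higher (3.08%) at an unadjusted p under 0.05, beside 12.1% and 9.04% of all genes. Their median log2 difference was -0.07, and 47 (72.3%) were negative, beside 52.1% of all genes. Of 54 measured genes of the wider integrated stress response, 3 rose and 1 fell by the adjusted threshold, where 2.22% of all genes passed it, with a median of 0.08 and 31 positive. At an unadjusted limma p under 0.05, 11 of them were higher (20.4%) and 2 lower (3.7%). Psat1, an enzyme of serine synthesis and an ATF4 target, had 1623, 1525, 1715, 1613 and 1164 normalized counts in the controls and 2655, 3167 and 3382 in the Arhgef11Sglt2 libraries (2.01-fold higher; log2 difference 0.82, SE 0.11, limma adjusted p = 0.0147). All 3 libraries were above the controls, and the call held without any single library. It held narrowly without control 4 (limma adjusted p = 0.0490) and without Arhgef11Sglt2 replicate 3 (0.0497). Gdf15, a secreted stress cytokine, had 382, 175, 339, 337 and 221 and 606, 653 and 1199 (2.82-fold higher; log2 difference 0.81, SE 0.16, limma adjusted p = 0.0401), and Sqstm1, an autophagy receptor, had 16964 ± 1561 and 26356 ± 5698 (1.55-fold higher; log2 difference 0.60, SE 0.13, limma adjusted p = 0.0491). Their groups did not overlap either.

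The gene that fell was Cth, cystathionine gamma-lyase, which makes cysteine and is also induced by ATF4 in other settings. Its controls held 5638, 5758, 5451, 5078 and 4932 normalized counts and its Arhgef11Sglt2 libraries 3817, 3805 and 3482 (1.45-fold lower; log2 difference -0.48, SE 0.07, limma adjusted p = 0.0176). Single libraries decided 3 of these calls. Gdf15 had adjusted p values of 0.0547, 0.0570, 0.0721, 0.0915 and 0.0921 in limma without control replicates 1 to 5, and 0.106 without Arhgef11Sglt2 replicate 3. Sqstm1 ran from 0.0522 to 0.142 when any library but Arhgef11Sglt2 replicate 1 was left out, and Cth had 0.0565 without control 4 and 0.0658 without replicate 3. Psat1, Gdf15 and Sqstm1 were higher in replicate 2 too, the library whose ATF4 arm mean was inside the control range.

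Some markers of kidney cell types differed between the groups. The summed normalized counts of 9 proximal tubule markers were 391446 to 468958 in the controls and 242474, 338770 and 224147 in Arhgef11Sglt2 replicates 1, 2 and 3, and 4 of the 9 were lower without overlap (Slc34a1, Lrp2, Slc7a13 and Acy3). Of the Arhgef11Sglt2 libraries, replicate 3 had the lowest proximal tubule sum and replicate 2 the highest. Plasma cells are rich in ER chaperones. The 8 measured B and plasma cell markers summed to 3791 to 12922 in the controls and 1278, 3370 and 1637 in the Arhgef11Sglt2 libraries, with Igkc, Jchain, Ighg2c and Mzb1 lower without overlap. The lowest sum of these markers, 1278, was in replicate 1, and control 2 had the lowest of the controls, 3791.

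The 7 injured tubule markers summed to 164983 to 589871 in the controls, control 2 being the highest, and to 923765, 576085 and 400250 in the Arhgef11Sglt2 libraries, and Lcn2, Krt20 and Sox9 were higher without overlap. All 7 had positive differences. Their mean log2 value relative to the control mean was -0.48 to 0.31 in the controls and 0.41 to 1.59 in the Arhgef11Sglt2 libraries. Fibroblast and pericyte markers summed to 36428 to 46091 in the controls and to 59365, 37945 and 18486 in replicates 1, 2 and 3, and macrophage markers to 9614 to 11737 and to 15544, 10002 and 6055. Replicate 1 was thus the highest and replicate 3 the lowest library in both. Thick ascending limb markers summed to 274663 to 322669 in the controls and 279253, 273117 and 232109 in the Arhgef11Sglt2 libraries (3 of 5 lower without overlap: Slc12a1, Cldn10 and Kcnj1). Neutrophil markers summed to 180 to 402 in the controls and 633, 392 and 394 in the Arhgef11Sglt2 libraries, with Retnlg and Cxcr2 higher without overlap. By mean log2 value the groups did not overlap for thick ascending limb (-0.12 to 0.12 in the controls, -0.57 to -0.19 in the Arhgef11Sglt2 libraries). Nor did they for neutrophil markers (-0.10 to 0.19 and 0.22 to 0.38). The sums of distal tubule and collecting duct, podocyte, endothelial, and T and NK cell markers overlapped between the groups, and no marker in these lists was at 0 in any library. The part of cell composition in the differences of the stress response genes was not tested.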

How the data were processed

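Poly(A) RNA of 8 kidney samples was made into stranded libraries, per the labels' protocols. Salmon 1.10.0, DESeq2 and the build GRCm39 were used, per the submitters' processing notes; the version of the latter and the annotation were not given. The deposited values are log2, variance-stabilized by the authors, as read from the numbers: all columns share the minimum 8.12753, the value of a zero count. That scale was inverted to normalized counts. Folds are ratios of group means of these; log2 differences, standard errors and tests are on the deposited scale. Depth was estimated from the spacing of low values; as 27.6% to 54.4% of them lay within 0.02 steps of a whole number, whole reads could not be recovered and count models were not applied.

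Groups were compared with limma 3.58.1 (R 4.3.3), two-sided, with group as the only term, 6 residual degrees of freedom, a mean-variance trend, and p-values adjusted by Benjamini-Hochberg across 15948 genes with a threshold of 0.05. The procedure was tested on simulated data. Symbols matched 15902 identifiers (99.71%); Aars1 and Wars1 were matched by older symbols. Genes were named by rule: every member, other listed pathway genes past the threshold, Arhgef11, and single markers whose groups did not overlap. The printed promoter stretches, beyond the textbook carriers Hspa5 and Asns, were chosen after the values were seen. The members and lists were chosen with earlier results of these data known. Nars1 and Tnfrsf17 of the lists are not analysed here. Alternatives covered the filter, blocks, variance model, weights, log scale, scaling, the threshold, and omission of each library in turn.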

Additional observations from a re-analysis of the deposited data

Results flagged for a closer look

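In 6 of the 40 measured genes 1 control library stood apart from the other 4 by Dixon's criterion at 95%. Chance alone meets it in about 1 of 20 groups of normally distributed values. It was applied to normalized counts, where high values stand apart more readily than on the log2 scale of the tests. Genes measured in the same libraries are not independent, so the 6 cannot be set directly against that rate. Control 2 was the high library in 3 ER arm genes. It held 5273.4 normalized counts of Dnajb11, where the other controls held 3856.5 to 4236.0. It held 4560.7 of Manf, where the others held 2235.2 to 2858.2, and 7981.5 of Hyou1, where the others held 5726.4 to 6216.6. The other 3 genes belong to the ATF4 arm, and each had another library high. Control 5 held 3530.5 of Atf4 (others 3030.0 to 3160.6), control 3 held 73.9 of Trib3 (others 34.4 to 45.7), and control 4 held 1852.1 of Wars1 (others 1589.5 to 1644.3). None of the 40 genes passed the adjusted threshold in limma with or without control 2. At an unadjusted limma p under 0.05, 11 ER arm genes were lower and 0 higher with it, and 4 and 1 without it.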

How the results depend on the processing

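A filter at a mean of 100 normalized counts left out Trib3 and Chac1, and none of the other 38 genes reached the adjusted threshold in limma. None of the 40 did with a library range block, no mean trend, robust variances, pseudocounts of 1 or 10, equal totals or library medians. At an adjusted p of 0.1, 2 passed (Nupr1 and Ppp1r15a, 2 of the ATF4 arm), and over all genes 1038 (368 higher, 670 lower). With library weights 7 passed (6 ER arm, 1 ATF4 arm), beside 874 genes (344 higher, 530 lower), and the ATF4 arm median was 0.060. That median was 0.28 with a pseudocount of 1 and 0.27 with 10, and the distance between the arm medians, 0.45 in the main result, was 0.61 and 0.60; with equal totals they were 0.31 and 0.60, with 164 genes higher. Leaving out 1 library at a time gave 24 to 1334 genes (4 to 578 higher, 20 to 756 lower), 0 to 14 of the 40 (ER arm 0 to 13, ATF4 arm 0 to 1), arm medians of -0.44 to -0.22 and 0.083 to 0.19, and a distance of 0.30 to 0.58. The count over all genes was 187, 135, 24 and 76 without control replicates 1, 3, 4 and 5, and 1334 and 45 without Arhgef11Sglt2 replicates 1 and 3. Genes near 0 changed sign, none of them past the threshold: with library weights Aars1 (-0.030) and Arhgef11 (0.027), with equal totals P4hb (0.0033) and Xbp1 (0.035), and over single libraries left out P4hb (-0.070 to 0.024), Xbp1 (-0.14 to 0.071), Herpud1 (-0.12 to 0.21), Vldlr (-0.20 to 0.074), Aars1 (-0.042 to 0.11) and Arhgef11 (-0.10 to 0.079). The causes were not tested. Same-numbered libraries of the groups did not deviate together (correlations of -0.175, -0.088 and -0.00676 across genes). Among replicates 1 to 3, no library correlated best with its own number. Control replicates 4 and 5 had no partner, so a replicate block rests on replicates 1 to 3. With a replicate block 0 genes passed (0 higher, 0 lower; 2166 at an unadjusted limma p under 0.05, of which 1 ER arm gene lower and 5 ATF4 arm genes higher), the arm medians were -0.30 and 0.14, Herpud1 was at -0.035, and Psat1, Cth, Gdf15 and Sqstm1 had adjusted p values of 0.189 to 0.223; the samples share only a number. Robust variances put Sqstm1 at 0.0501. Depth limits Trib3 and Chac1 most, whose libraries held under 200 normalized counts.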
